A study of Mus musculus with 6 samples.

Results

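The transcripts described here are those of 6 fibroblast growth factor (FGF) ligand genes, Fgf1, Fgf2, Fgf7, Fgf10, Fgf13 and Fgf18, and of the 4 FGF receptor genes, Fgfr1, Fgfr2, Fgfr3 and Fgfr4. They were taken as every non-control probe whose gene name in the scanner files is one of these 10, which gave 23 of the 41174 probes on the array, 10 for ligands and 13 for receptors. The samples were primary cultures of C4HD, a hormone-dependent ductal mammary tumour of female BALB/c mice that arose under the progestin medroxyprogesterone acetate (MPA) and is carried by transplantation in MPA-treated animals. All 6 cultures were transfected with siPORT NeoFX, 3 with 30 nM pre-miR-16, a precursor of the microRNA miR-16, and 3 with 30 nM pre-miR-Control, a scrambled precursor, and RNA was taken after 48 h. Each culture is a biological replicate per the series' design text and gave 1 single-colour Agilent array. The question is how transcript levels of these ErbB-2 positive cells respond to forced miR-16 expression. Per the labels' protocols, digested tumour tissue was allowed to sediment repeatedly until no fibroblasts were seen in the supernatant, and the sedimented, epithelium-enriched fraction was plated. The sources used here do not give the animals' age or how many tumours the cultures came from.

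Both ligand and receptor transcripts went in both directions in the pre-miR-16 cultures. Fgf7 rose 7.41-fold and Fgf18 rose 6.60-fold, Fgf2 rose at 1 of its 2 probes, and Fgf1 fell 2.11-fold. The size of the Fgf7 rise rests on dim control signals, well above background on 1 control array, and was smaller with another background correction. Among the receptors, Fgfr1 rose 2.47-fold, while Fgfr2 fell 1.98-fold and Fgfr3 fell 2.01-fold. Scaled on spike-in RNAs, the falls of Fgf1 and Fgfr2 were not called at their brightest probes. Fgf13 and Fgfr4 were not called at their brightest probes, and Fgf10 was not well above background on any array.

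FGFs are secreted proteins that bind heparan sulphate and activate receptor tyrosine kinases, which signal through the adaptor Frs2 to the Ras and MAP kinase pathway. Splicing of Fgfr1, Fgfr2 and Fgfr3 gives epithelial and mesenchymal receptor forms with different ligands, so that Fgf7 and Fgf10, made by stroma, act on the epithelial form of Fgfr2. In the mammary gland this stroma-to-epithelium signalling drives bud formation and branching, and several FGF genes were found as insertion sites of mouse mammary tumour virus.

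The sequences below are the transfected microRNA and the probes on which the ligand and receptor results mainly rest. The mature mmu-miR-16-5p, from RefSeq with the GRCm38.p6 table, is shown with its seed, bases 2 to 8, in capitals.

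mmu-miR-16-5p: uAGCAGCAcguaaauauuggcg

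The complement of that seed, TGCTGCT, occurred on the transcript strand in 0 of the 23 member probes, against 0.544% of all 41174 array probes, and on either strand in 0 of 23 against 0.986%. A probe covers only 60 bases of a transcript, so this says nothing of the rest of it. The probes are given 5′ to 3′ as in the scanner files, with coordinates of the files' build (mm7, NCBI35). Their place in exons was not checked against an annotation of that build. The Fgf2 pair is shown because the probes differ on 1 control array, and Fgf7 as the stromal ligand of Fgfr2.

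Fgf2 A_51_P399845: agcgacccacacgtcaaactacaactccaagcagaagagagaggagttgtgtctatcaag

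Fgf2 A_52_P376768: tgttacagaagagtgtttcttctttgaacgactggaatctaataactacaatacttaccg

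Fgf7 A_51_P465331: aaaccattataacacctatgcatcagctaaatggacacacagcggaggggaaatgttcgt

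The Fgf2 probe A_51_P399845 starts and ends at chr3:37159793-37207012 on the plus strand, a span of 47220 bases, so it crosses an intron, and A_52_P376768 lies at chr3:37215398-37215457. The Fgf7 probe lies at chr2:125830264-125830323, plus strand. The Fgfr1 pair below is shown because the probes overlap by 39 bases and differ there at 1 base, in capitals. Counted from the 5′ end of A_52_P668810 the substitution from A_51_P109469 is A36G. The Fgfr2 probe is shown because it lies apart in the genome from that gene's other probes.

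Fgfr1 A_51_P109469: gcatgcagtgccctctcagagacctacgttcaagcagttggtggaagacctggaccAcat

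Fgfr1 A_52_P668810: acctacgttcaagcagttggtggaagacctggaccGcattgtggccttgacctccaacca

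Fgfr2 A_52_P158800: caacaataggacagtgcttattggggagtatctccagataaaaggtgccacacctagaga

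The Fgfr1 probes lie at chr8:24330044-24330103 and chr8:24330065-24330124, plus strand, and the Fgfr2 probe at chr7:126407714-126407773, minus strand.

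Levels are log2 processed signals minus the 75th percentile of the array, so 0 is a signal at that percentile, and they are given for replicates 1, 2 and 3 of a group in that order. Changes are log2 differences, pre-miR-16 minus pre-miR-Control, ± SE, from limma fitted over all 23827 kept probes with Benjamini-Hochberg adjustment over them. A transcript is said to have risen or fallen where the adjusted p was under 0.05. Each gene is represented by its brightest kept probe, and levels of different probes are not compared. That percentile lay between 625 and 909 signal units, no array had a saturated spot, and the share of spots well above background was 57.2% to 64.0%. With 3 arrays per group, their number limits the precision. Pre-miR-Control replicate 1 stood apart: at 1447 of 35851 probes on which the other control arrays lay within 0.5 of each other, it read over 2 log2 units higher (4.04%), against 0.279% to 0.834% by the same count on the other 5 arrays. The arrays came from 3 slides, with replicate 1 of both groups on slide 1, replicate 2 of both groups and replicate 3 of the controls on slide 2, and replicate 3 of the pre-miR-16 cultures alone on slide 3.

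Fgf7, keratinocyte growth factor, read -4.81, -5.52 and -5.58 on the control arrays and -2.53, -2.13 and -2.57 on the pre-miR-16 arrays. The groups did not overlap, and every pre-miR-16 array was more than 2 units above every control array. A lack of overlap is common on these arrays: 61.4% of all genes tested and 59.7% of all kept probes had none. Of the control arrays only replicate 1 was well above background for Fgf7, so Fgf7 passed the filter on dim probes through the pre-miR-16 arrays alone. Its mean went from -5.30 ± 0.43 to -2.41 ± 0.24 (SD, n = 3), and in limma it rose by 2.89 ± 0.24 (adjusted p = 3.11e-04). The difference was 2.28 within slide 1 and 3.42 within slide 2. Under normexp background correction, which lifts dim signals, the rise of Fgf7 was 1.12 and in the deposited matrix values it was 1.24, both still called.

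Fgf2, basic FGF, was measured by both printed probes, and these differed on 1 array. A_51_P399845, spotted 10 times, read -3.68, -7.19 and -7.07 on the control arrays and -3.45, -3.36 and -3.41 on the pre-miR-16 arrays. The control group was split: replicate 1 lay beside the pre-miR-16 arrays, with all 10 of its spots well above background, and replicates 2 and 3 had 0 spots well above background. A_52_P376768 read -6.70, -6.37 and -7.63 on the control arrays and -3.36, -3.31 and -3.74 on the pre-miR-16 arrays. At this probe control replicate 1 lay with the other controls and no control array was well above background.

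At A_51_P399845, the brighter of these, the Fgf2 mean went from -5.98 ± 1.99 to -3.41 ± 0.05 (SD, n = 3), and the difference of 2.58 ± 0.92 was not called (adjusted p = 0.0599 in limma, 95% interval 0.36 to 4.80). It was 0.23 within slide 1 and 3.77 within slide 2. Without pre-miR-Control replicate 1 it was 3.53 with an adjusted p of 0.00246. At A_52_P376768 Fgf2 rose by 3.43 ± 0.33 (adjusted p = 5.58e-04), from a measured -6.90 ± 0.65 to -3.47 ± 0.23. As no control array was well above background there, the rise is given as at least 3.64-fold. That sets the pre-miR-16 mean against the control arrays' lowest signals well above background. This and later bounds hold only for the processing as reported, and other background corrections can give smaller changes. The difference within slide 1 was 3.33 and within slide 2 it was 3.69. With normexp the changes at A_51_P399845 and A_52_P376768 were 0.54 and 0.74. Of these the second was called (limma adjusted p = 0.00142) and the first was not (adjusted p = 0.0656). Both probes passed the filter on dim probes through the pre-miR-16 arrays alone.

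Fgf18, a ligand best known from bone and lung development, read -1.17, -1.64 and -1.63 on the control arrays and 1.39, 1.63 and 0.71 on the pre-miR-16 arrays. Its probe was well above background on all 6, and the lowest pre-miR-16 array, replicate 3, still lay above every control. Fgf18 rose from -1.48 ± 0.27 to 1.24 ± 0.48, by 2.72 ± 0.26 (adjusted p = 5.83e-04 in limma), with 2.56 within slide 1 and 3.26 within slide 2.

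Fgf1, acidic FGF, which binds all receptors of the family, was the ligand that fell. At its brighter probe it read -2.31, -2.26 and -2.65 on the control arrays and -3.66, -3.51 and -3.29 on the pre-miR-16 arrays, with no overlap. The means were -2.41 ± 0.21 and -3.49 ± 0.19, and Fgf1 fell by 1.08 ± 0.15 (adjusted p = 0.00248 in limma); the difference was -1.35 within slide 1 and -1.06 within slide 2. Its second probe read -3.20, -3.49 and -3.82 against -5.92, -5.02 and -5.26, a change of -1.89 ± 0.27 (adjusted p = 0.00249). Of the pre-miR-16 arrays, 1 was well above background at that probe. With normexp the changes of Fgf1 were -0.70 and -0.75, both called. Scaled on the spike-in RNAs, the change of the brighter probe was -0.64 with an adjusted p of 0.0604, so that call was lost.

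Fgf13 belongs to the FGF homologous factors, which stay in the cell and do not act through the receptors. Its 3 probes were well above background on all 6 arrays and 0 of them was called. At the brightest it read -0.25, -0.03 and 0.20 on the control arrays and 0.16, -0.39 and 0.53 on the pre-miR-16 arrays, which overlap. The change was 0.13 ± 0.25 (adjusted p = 0.690 in limma), with a 95% interval from -0.47 to 0.73, and the differences at the other probes were -0.00 and -0.21. Fgf10, a stromal ligand of epithelial Fgfr2, read -7.49, -7.27 and -7.48 on the control arrays and -7.53, -7.31 and -7.09 on the pre-miR-16 arrays. Of its 10 spots per array 0 were well above background on any array, so Fgf10 was not tested and a difference in it was not detectable.

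**Figure D1:**
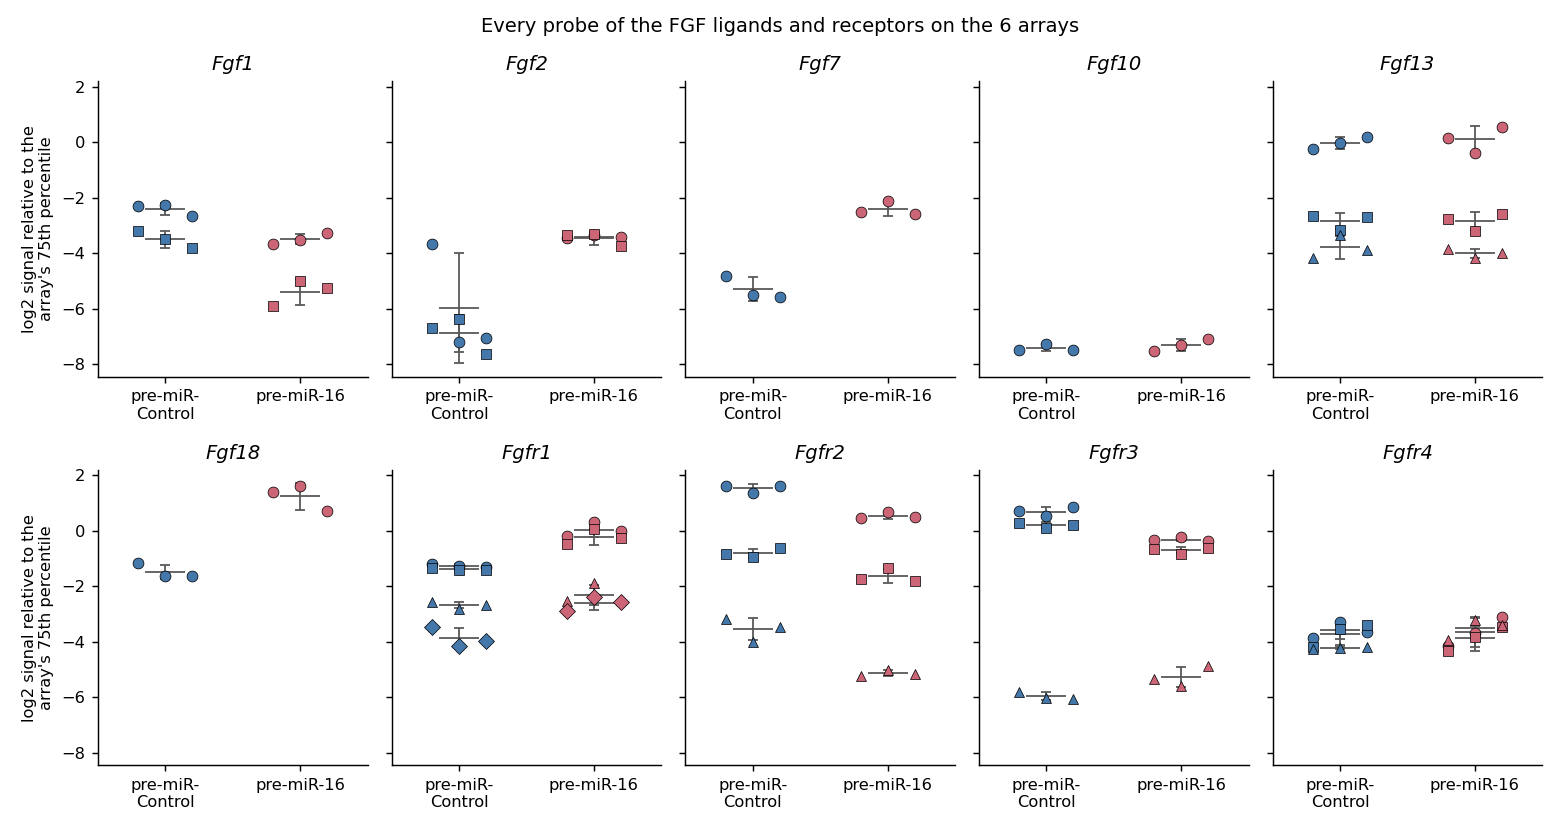
Level of every probe of the 10 genes on the 6 arrays, as log2 signal relative to the array's 75th percentile (y axis), by group (x axis); each marker shape within a panel is 1 probe, points run from replicate 1 to 3, and bars are the mean ± SD of 3 arrays. Fgf7 and Fgf18 on the pre-miR-16 arrays lie above all control arrays, Fgf2 has 1 control point at -3.68 beside the pre-miR-16 points, and Fgfr2 and Fgfr3 lie lower on the pre-miR-16 arrays at their tested probes.

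Fgfr1, the main receptor of mesenchymal cells, read -1.19, -1.28 and -1.32 on the control arrays and -0.19, 0.32 and 0.00 on the pre-miR-16 arrays at A_52_P668810. The control arrays lay close together and below each pre-miR-16 array. Fgfr1 rose there from -1.26 ± 0.07 to 0.05 ± 0.26, by 1.31 ± 0.15 (adjusted p = 0.00108 in limma), with 1.00 within slide 1 and 1.62 within slide 2. The overlapping probe A_51_P109469 rose by 1.16 ± 0.15 (adjusted p = 0.00198), and the SD among its 10 spots was 0.03 to 0.06 on each array, against an SD of 0.28 among the pre-miR-16 arrays. For the control arrays that SD was 0.04, no larger than among spots.

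Fgfr1 has 2 further probes elsewhere in the transcript. A_52_P136162 rose by 1.24 ± 0.22 (adjusted p = 0.00516), or by 0.52 with normexp, where it was still called. A_52_P552062 read -2.56, -2.80 and -2.67 on the control arrays and -2.54, -1.88 and -2.51 on the pre-miR-16 arrays. Its difference of 0.37 ± 0.20 was not called (adjusted p = 0.172 in limma, 95% interval -0.11 to 0.85), and with spike-in scaling it was 0.80 and called (adjusted p = 0.0199). It lies at chr8:24288465-24288524, upstream of the other Fgfr1 probes in the genome.

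Fgfr2, whose epithelial form is the receptor of Fgf7, read 1.62, 1.36 and 1.63 on the control arrays and 0.47, 0.68 and 0.51 on the pre-miR-16 arrays. Every pre-miR-16 array was below every control array. The mean of Fgfr2 fell from 1.54 ± 0.15 to 0.55 ± 0.11 (SD, n = 3), and its change was -0.98 ± 0.12 (adjusted p = 0.00136 in limma), with -1.15 within slide 1 and -0.82 within slide 2. Its 10-spot probe A_51_P432403 read -0.84, -0.96 and -0.63 against -1.74, -1.34 and -1.81, a change of -0.82 ± 0.16 (adjusted p = 0.00785), and the SD among spots was at most 0.07. The printed probe A_52_P158800 read -3.19, -3.99 and -3.46 against -5.24, -5.01 and -5.15, a change of -1.59 ± 0.21 (adjusted p = 0.00198), or -0.73 with normexp, still called. All 3 probes of Fgfr2 fell. Which receptor form each of them detects was not checked, so the epithelial and mesenchymal forms are not told apart here.

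Fgfr3, a receptor that also has epithelial and mesenchymal forms, read 0.71, 0.52 and 0.85 on the control arrays and -0.33, -0.24 and -0.37 on the pre-miR-16 arrays. The groups were more than 0.7 apart at their nearest arrays. The means of Fgfr3 were 0.70 ± 0.17 and -0.31 ± 0.07 (SD, n = 3), and it fell by 1.01 ± 0.12 (adjusted p = 0.00115 in limma), with -1.04 within slide 1 and -0.92 within slide 2. A_51_P322906, which overlaps that probe by 37 bases, changed by -0.90 ± 0.11 (adjusted p = 0.00129). The remaining Fgfr3 probe was well above background on pre-miR-16 replicate 1 alone and was not tested. Its dim readings went the other way, -5.80, -6.02 and -6.05 on the control arrays against -5.33, -5.61 and -4.87, with no overlap.

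The falls of Fgfr2 and Fgfr3 were smaller with another scaling. Spike-in RNAs read 2.28 to 2.43 above the 75th percentile on the control arrays and 1.68 to 2.06 above it on the pre-miR-16 arrays. Scaled on them, the change of Fgfr2 was -0.55 with a limma adjusted p of 0.0592, so its call was lost. The change of Fgfr3 was -0.57 with a limma adjusted p of 0.0496, still called. The dimmer probes A_51_P432403 and A_51_P322906 were not called with that scaling (-0.39 and -0.46, limma adjusted p = 0.181 and 0.108). The rises of Fgfr1, Fgf7 and Fgf18 were larger with that scaling, at 1.74, 3.32 and 3.16. The sources used here do not say how much spike-in RNA went into each sample.

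Fgfr4, the receptor that liver uses for endocrine FGF signals, read -3.85, -3.28 and -3.65 on the control arrays and -4.16, -3.70 and -3.09 on the pre-miR-16 arrays. The groups overlapped, and pre-miR-16 replicate 3 was the highest of all. The change was -0.06 ± 0.29 (adjusted p = 0.888 in limma), with a 95% interval from -0.76 to 0.65, and at a second probe it was -0.17 ± 0.29 (adjusted p = 0.653). At A_52_P686383 Fgfr4 read -4.25, -4.24 and -4.17 against -3.93, -3.23 and -3.39, and rose by 0.70 ± 0.19 (adjusted p = 0.0234). That last call was lost in 8 of the 19 alternatives that could be computed for the probe, among them normexp (0.18, adjusted p = 0.215), slide as a block (0.69, adjusted p = 0.0546) and leaving out any 1 control array or pre-miR-16 replicate 3 (0.64 to 0.73, adjusted p 0.0607 to 0.0740).

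**Figure D2:**
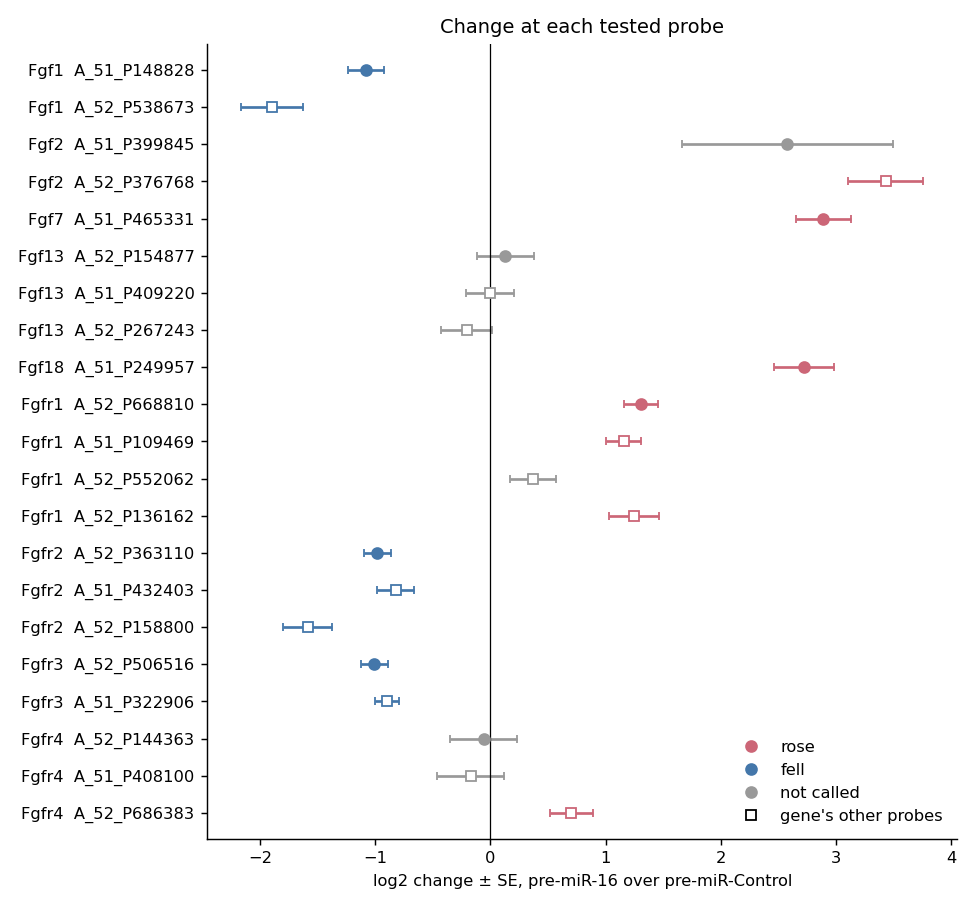
Change at each of the 21 tested probes as log2 pre-miR-16 over pre-miR-Control (x axis), with bars of ± SE from limma; filled circles are each gene's brightest probe, open squares its other probes, and colour gives the call. The receptor probes range from -1.59 to 1.31, with all tested Fgfr2 and Fgfr3 probes below 0 and all Fgfr1 probes above it.

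Over the ligand genes, 5 of 6 could be tested, of which 2 rose, 1 fell and 2 were not called at the brightest probe. Over the 4 receptor genes, 1 rose, 2 fell and 1 was not called. Of all 16702 genes tested, 48.2% were called, 15.8% as rises and 32.5% as falls, with a median change of -0.20, so being called is common among genes on these arrays and the members' counts of 3 of 5 and 3 of 4 are read as no more than a description. Among single probes, 3 ligand probes rose, 2 fell and 4 were not called, and 4 receptor probes rose, 5 fell and 3 were not called, beside 46.5% called among all 23827 probes, 15.2% as rises and 31.3% as falls. With spike-in scaling the median change of all genes was 0.23, and 82.0% of the genes called were rises, against 32.7% with the 75th percentile. A lower transcript level in a culture can come from fewer cells of a type or from less RNA per cell, and these cannot be told apart in bulk RNA.

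Differences between the changes of 2 genes do not depend on how arrays are scaled, and 9 such differences were computed within arrays. The first sets the ligand Fgf7 against its receptor Fgfr2. Set to a control mean of 0, the Fgf7 level minus the Fgfr2 level was 0.41, -0.04 and -0.36 on the control arrays and 3.83, 4.03 and 3.75 on the pre-miR-16 arrays. The groups did not overlap, and the change of Fgf7 exceeded that of Fgfr2 by 3.87 (exact two-sided permutation test, p = 0.10, 0.15 after adjustment over the 9). That p is the smallest that 3 against 3 arrays allow. Of the control arrays only replicate 1 was well above background for Fgf7, so the size of the difference rests on dim control signals. With normexp the difference was 2.07, and with the deposited matrix values it was 2.16. Fgf10 minus Fgfr2 was not computed, since no Fgf10 probe was kept.

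Values of this and the later pairs are set to their control mean in the same way, so they do not compare the levels of the genes. The Fgf2 level minus the Fgfr1 level, so set, was 2.22, -1.19 and -1.03 on the control arrays and 1.46, 1.04 and 1.31 on the pre-miR-16 arrays. Control replicate 1 was the highest of all 6, the groups overlapped, and the difference of 1.27 was not larger than the spread between arrays (exact two-sided permutation p = 0.40, adjusted 0.45). Without control replicate 1 it was 2.19, without replicate 2 of the controls 0.68 and without their replicate 3 it was 0.75. It turned to -0.60 with normexp and to -0.44 in the matrix values. With the second Fgf2 probe it measured 2.12, with no overlap (exact permutation p = 0.10, adjusted 0.15). As the control arrays were not well above background at that probe, it is given as at least 0.56 with the processing as reported. It turned to -0.40 with normexp and to -0.24 in the matrix values. This comparison was chosen after its values were seen, as were those between receptors that follow.

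Between receptors, the change of Fgfr1 exceeded that of Fgfr2 by 2.29, that of Fgfr3 by 2.31 and that of Fgfr4 by 1.36. None of these overlapped between the groups, and each had the smallest possible p (exact two-sided permutation, 0.10, adjusted 0.15). Of all single genes tested, 61.4% had no overlap either. Relative to their control mean, the Fgfr1 minus Fgfr2 values were -0.01, 0.16 and -0.15 on the control arrays and 2.14, 2.44 and 2.29 on the pre-miR-16 arrays. The shift was many times the spread within either group. Fgfr2 and Fgfr3 changed by nearly the same amount. Relative to its control mean, their difference lay between -0.07 and 0.07 on all 6 arrays, and its change was 0.03 (exact two-sided permutation p = 0.60). Against Fgfr4, the change of Fgfr2 was lower by 0.93 (-0.93, exact permutation p = 0.10, adjusted 0.15), and that of Fgfr3 was lower by 0.95 (-0.95, exact permutation p = 0.20, adjusted 0.257), with an overlap in the latter.

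**Figure D3:**
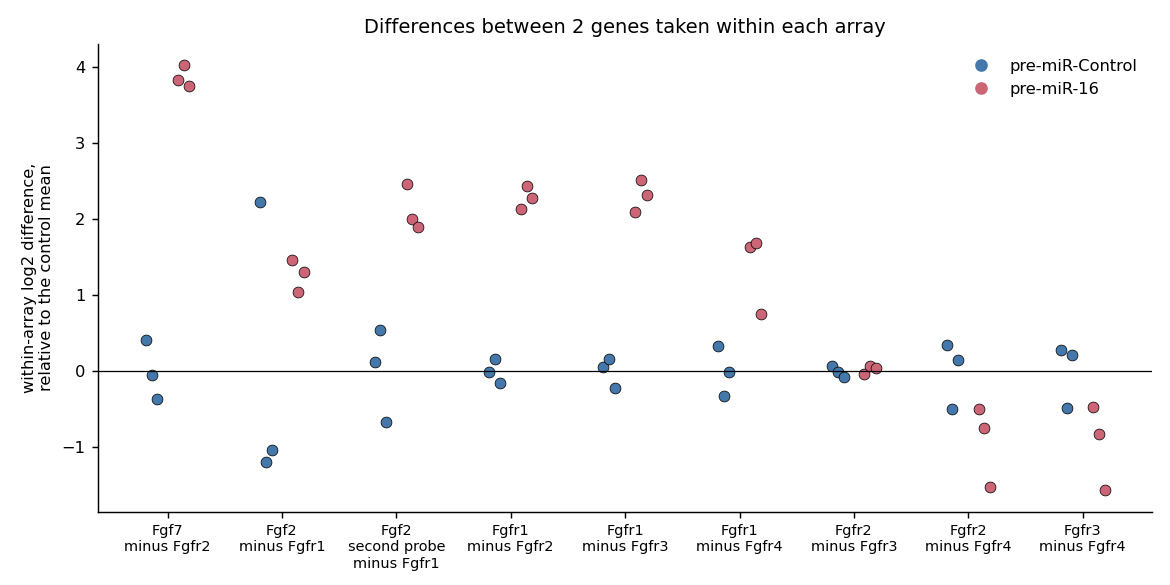
Within-array log2 difference between the levels of 2 genes, relative to its mean over the control arrays (y axis), for 9 pairs (x axis), with 1 point per array. The pre-miR-16 points of Fgf7 minus Fgfr2 lie between 3.75 and 4.03, and those of Fgfr1 minus Fgfr2 between 2.14 and 2.44. Those of Fgfr2 minus Fgfr3 overlap the control points. For the second Fgf2 probe the control levels were not well above background, and for Fgf7 only that of replicate 1 was.

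Among the other FGF ligands, 4 of 16 could be tested, of which 1 rose and 2 fell, beside 48.2% called among all genes. Fgf21, an endocrine factor of metabolism that needs the co-receptor Klb, rose from -3.46 ± 0.48 to 1.12 ± 0.25, by 4.58 ± 0.26 (24.0-fold, adjusted p = 6.01e-05 in limma), a larger change than at any tested member probe. Klb itself was not kept. Fgf9, a ligand of Fgfr3 and of mesenchymal Fgfr2, fell by 0.93 (-0.93 ± 0.18, adjusted p = 0.00773), and Fgf11, an intracellular factor related to Fgf13, changed by -1.13 ± 0.15 (adjusted p = 0.00213). Fgf8, a ligand that acts as an oncogene in mammary tumours, differed by -0.70 ± 0.24 and was not called (adjusted p = 0.0558). In 7 of 22 alternatives Fgf8 was called as a fall, among them normexp (-0.56, limma adjusted p = 0.0326), array weights (-0.87, adjusted p = 0.00280) and leaving out pre-miR-16 replicate 2 (-0.95, adjusted p = 0.00673). The call of Fgf11 was lost in the fit over the mean of its probes (-0.56, adjusted p = 0.0608). With spike-in scaling Fgf9 was no longer called (-0.49, adjusted p = 0.117).

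Of 9 tested co-receptors and FGF-binding proteins, 4 rose and 0 fell, beside 48.2% called among all genes. Their median change was 0.35, beside -0.20 for all genes. Ncam1, a neural adhesion molecule that binds FGF receptors, rose from -0.49 ± 0.17 to 3.62 ± 0.18, by 4.10 ± 0.14 (17.2-fold, adjusted p = 1.24e-05 in limma). Cdh2, N-cadherin, which stabilises Fgfr1 at the membrane, was not well above background on the control arrays, and its rise was at least 7.86-fold (adjusted p = 1.61e-05). Flrt3, a membrane protein that promotes FGF signalling, was also not well above background there, and its rise was at least 1.95-fold (adjusted p = 1.98e-05). With normexp the log2 changes of Cdh2 and Flrt3 were 1.32 and 0.45, both called but below these bounds. Both passed the filter on dim probes through the pre-miR-16 arrays alone. With only genes well above background on all 6 arrays, 2 of 7 rose and the median was 0.14, and without pre-miR-Control replicate 2 the median of the 9 was 0.22.

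Heparan sulphate proteoglycans, which hold FGFs at the cell surface, went both ways, with 4 of 9 tested genes rising, 3 falling and a median of 0.45. Among all genes 48.2% were called, with a median of -0.20. Gpc4 rose by 0.72 (adjusted p = 0.0137) and Sdc3 by 0.59 (adjusted p = 0.00683). Gpc6 rose by 1.44 (adjusted p = 0.0314), a call lost in 6 of 21 alternatives, among them normexp (0.30) and leaving out any 1 array other than pre-miR-Control replicate 1 or pre-miR-16 replicate 2 (1.07 to 1.39). Gpc6 was well above background on 1 control array and passed the filter on dim probes through the pre-miR-16 arrays alone. Sdc1, the main syndecan of epithelium, changed by -1.05 (adjusted p = 0.00426), Gpc1 by -0.93 (adjusted p = 8.36e-04) and Agrn by -0.59 (adjusted p = 0.00426). Sdc4 and Gpc3 differed by -0.21 and 0.61 and were not called (adjusted p = 0.383 and 0.0951). Leaving out pre-miR-16 replicate 1 left 2 rises. In the fit over the mean of each gene's probes 2 rose and the median was 0.12, and there the call of Sdc3 was lost (0.33, adjusted p = 0.0885). With normexp the median was 0.14, and with only genes well above background on all 6 arrays it was 0.12. With spike-in scaling 5 rose and 1 fell, and Gpc1 and Agrn were not called. All p-values of these genes are from limma.

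Of 17 tested enzymes that build or edit heparan sulphate, 8 rose and 2 fell, beside 48.2% called among all genes. Their median was 0.05, beside -0.20 for all genes. Hs6st2, which adds the 6-O-sulphate that FGF receptors read, rose from -2.41 ± 0.14 to 1.83 ± 0.26, by 4.24 ± 0.16 (18.9-fold, adjusted p = 1.44e-05 in limma). Sulf1 and Sulf2, which remove 6-O-sulphate, rose by 1.01 (adjusted p = 0.00276) and 1.56 (adjusted p = 0.0435). Hs3st3b1, a 3-O-sulphotransferase, changed by -2.82 ± 0.32 (adjusted p = 0.00115), and Hs3st1 by -0.72 (adjusted p = 0.0388). The calls of Sulf2 and Hs3st1 were each lost in 7 of 22 alternatives, for both on leaving out pre-miR-Control replicate 1 or 2 or pre-miR-16 replicate 1 or 3, and for Sulf2 also without pre-miR-Control replicate 3 (limma adjusted p up to 0.128 for Sulf2 and 0.111 for Hs3st1). Leaving out any 1 array other than pre-miR-16 replicate 2 left 5 rises and 1 to 2 falls.

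Of 25 tested adaptors and kinases behind the receptors, 2 rose, 4 fell and 19 were not called, with a median of -0.15, beside 48.2% called and a median of -0.20 over all genes. Without pre-miR-Control replicate 2, and likewise with the replicate block, 2 fell. Map2k1, the kinase of the MAP kinases, rose by 0.71 (adjusted p = 0.00264), and the adaptor Shc1 by 0.51 (adjusted p = 0.0110). The adaptors Gab1 and Grb2 changed by -1.19 (adjusted p = 0.00551) and -0.61 (adjusted p = 0.00440). Scaled on the spike-ins, 4 of them rose, 1 fell, their median was 0.28, and Grb2 was not called. The p-values are limma's, adjusted over all probes.

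Of 7 tested feedback inhibitors of FGF signalling, 2 rose and 1 fell, beside 48.2% called among all genes. Their median was 0.24, beside -0.20 for all genes. Dusp4, a phosphatase of MAP kinases, went from 5.83 ± 0.04 to 4.55 ± 0.30, a change of -1.28 ± 0.16 (adjusted p = 0.00162 in limma), or -0.85 and still called with spike-in scaling. Spred1 and Spred2, inhibitors of Ras signalling, rose by 0.55 (adjusted p = 0.0191) and 0.37 (adjusted p = 0.0260). The calls of both were lost on leaving out any 1 control array or pre-miR-16 replicate 1 (Spred1 limma adjusted p 0.0514 to 0.0624, Spred2 0.0624 to 0.0856). That of Spred2 was also lost without pre-miR-16 replicate 3 (adjusted p = 0.0667). In all they were lost in 7 and 9 of 22 alternatives.

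Of 12 transcription factors that respond to FGF, 5 rose and 1 fell, near the 48.2% called among all genes. Their median was 0.44, beside -0.20 for all genes. Egr2, an immediate early factor, rose from -0.35 ± 0.08 to 2.36 ± 0.12, by 2.71 ± 0.11 (6.56-fold, adjusted p = 1.57e-05 in limma). Etv1 and Etv5, ETS factors downstream of FGF receptors, were not well above background on the control arrays and passed the filter through the pre-miR-16 arrays alone. The rise of Etv1 was at least 1.71-fold (adjusted p = 0.00440) and that of Etv5 at least 2.68-fold (adjusted p = 0.00144). With normexp their log2 changes were 0.36 and 0.40, both called but below these bounds. With only genes well above background on all 6 arrays, 3 of 10 rose and 1 fell, with a median of 0.20. Klf4 changed by -0.50 (adjusted p = 0.0278), a call lost in 10 of 22 alternatives, also without replicate 1 or 3 of either group (adjusted p 0.0561 to 0.0853). With spike-in scaling 6 of the 12 rose and 0 fell, and without pre-miR-16 replicate 2 it was 8 and 2.

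**Figure D4:**
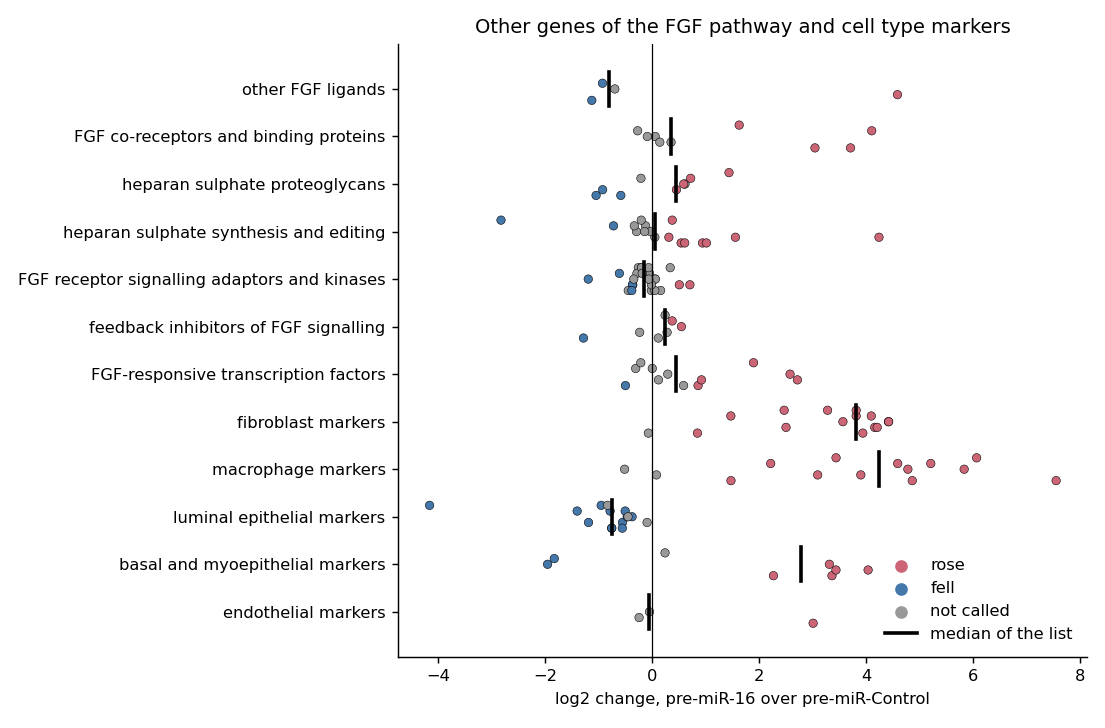
Log2 change, pre-miR-16 over pre-miR-Control (x axis), of each tested gene of 12 lists (rows), 1 point per gene coloured by its call, with the median of each list as a bar. Fibroblast and macrophage markers have medians of 3.81 and 4.24, against -0.76 for luminal markers and -0.15 for adaptors and kinases.

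Markers of other cell types moved with these results. Of 15 fibroblast markers, 14 rose and 0 fell, with a median of 3.81, beside 15.8% rises and a median of -0.20 over all genes. Their summed level was 8.69 to 8.92 on the control arrays and 9.34 to 9.65 on the pre-miR-16 arrays. Such sums add unlogged signals, so the brightest genes weigh most in them, and Dcn alone read 8.56 to 8.79 on the control arrays. Of these 15, 12 were well above background on all control arrays and 1 on none of them. Col1a1 rose by 3.94, Col3a1 by 4.42, Fbn1 by 4.42 and Pdgfrb, the receptor of mural cells and fibroblasts, by 4.21 (adjusted p = 1.24e-05, 1.37e-05, 1.37e-05 and 1.29e-05 in limma), while Dcn differed by -0.07 (adjusted p = 0.685). Of 14 tested macrophage markers, 12 rose and 0 fell, with a median of 4.24 and a summed level of 4.21 to 4.60 against 7.76 to 8.05. Of these 14, 6 were well above background on all control arrays, and the other 8 passed the filter through the pre-miR-16 arrays alone. With only the 6, 4 rose and the median was 1.84, and with normexp 12 of 14 rose with a median of 2.03. Among them Adgre1 rose by 7.55 (limma adjusted p = 2.68e-05), C1qc by 6.06 (adjusted p = 9.97e-05) and C1qa by 5.83 (adjusted p = 1.35e-04). Ptprc, the common leukocyte antigen, was not well above background on the control arrays. Its rise was at least 12.2-fold with the processing as reported (limma adjusted p = 1.29e-05). With normexp its log2 change was 1.81 and in the matrix values 1.80, both called but below that bound. Csf1r and Aif1 differed by -0.51 and 0.08 and were not called (adjusted p = 0.146 and 0.800). The part of fibroblast or macrophage RNA in the rises of Fgf2, Fgf7, Fgf18 and Fgfr1 was not tested.

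Of the luminal markers of the labelled epithelium, all 15 were well above background on every control array, as were 12 of 15 fibroblast and 6 of 8 basal and myoepithelial markers. With spike-in scaling 3 of the 15 fell. With the 75th percentile 12 fell and 0 rose, with a median of -0.76, beside 32.5% falls over all genes. Leaving out pre-miR-Control replicate 1 or 3 left 8 falls, and leaving out any other array 9 to 11. Krt8 changed by -1.19 (adjusted p = 4.80e-04), Epcam by -0.76 (adjusted p = 0.00295), Gata3 by -1.40 (adjusted p = 0.00707) and Elf5, a factor of alveolar cells, by -4.16 (adjusted p = 6.49e-04), while Muc1, Esr1 and Prlr were not called (-0.45, -0.09 and -0.83, limma adjusted p = 0.124, 0.703 and 0.0794). Elf5 was well above background on 1 pre-miR-16 array and passed the filter through the control arrays alone. Its change was -2.57 with normexp and -2.50 in the matrix values, both still called. The summed level of the luminal markers was 10.1 to 10.2 on the control arrays and 9.27 to 9.36 on the pre-miR-16 arrays. The part of epithelial RNA content in the falls of Fgfr2 and Fgfr3 was not tested.

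Of 8 tested basal and myoepithelial markers, 5 rose and 2 fell, beside 15.8% rises and 32.5% falls over all genes. With only those well above background on all 6 arrays, 3 of 6 rose and 2 fell. Those that rose with the largest change were genes of contractile cells, Cnn1 by 4.04, Mylk by 3.44 and Acta2 by 3.36 (limma adjusted p = 1.61e-05, 0.00145 and 1.22e-04), whereas the basal keratins Krt14 and Krt17 changed by -1.95 and -1.83 (adjusted p = 0.00639 and 2.05e-04) and Krt5 differed by 0.24 and was not called (adjusted p = 0.484). Mylk was well above background on 1 control array and passed the filter through the pre-miR-16 arrays alone. Its change was 1.52 with normexp and 1.58 in the matrix values, both still called. Of 10 endothelial markers 3 were tested and Pecam1 was not kept. Eng rose by 3.01 (adjusted p = 1.07e-04 in limma), and Vwf and Esam differed by -0.05 and -0.24 and were not called (adjusted p = 0.888 and 0.523).

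**Figure D5:**
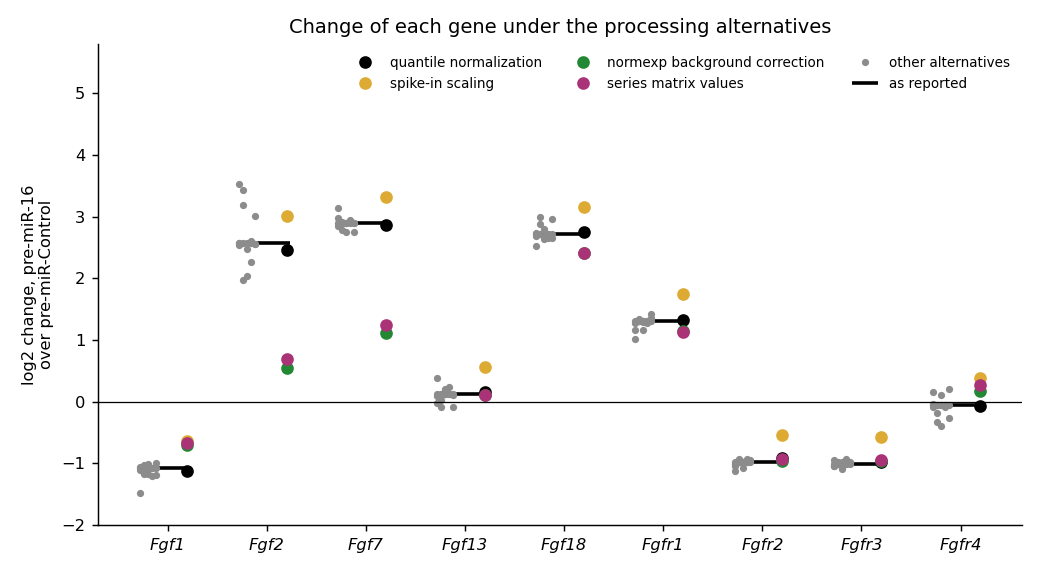
Log2 change, pre-miR-16 over pre-miR-Control (y axis), of the 9 tested genes (x axis), with the processing alternatives as points. The value as reported is a bar, and the most influential settings are in colour. Fgf2 ranges from 0.54 to 3.53 and Fgf7 from 1.12 to 3.32, whereas Fgfr1 ranges from 1.02 to 1.74 and Fgfr2 from -1.13 to -0.55.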

How the data were processed

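The deposited scanner files hold spot intensity values from Agilent Feature Extraction 9.5.3.1, background-subtracted within each array per the file headers. The deposited series matrix holds log2 values whose normalization is not stated in the labels, with column medians from 6.79 to 6.81; in it the pre-miR-16 columns 1 and 2 follow each other's scanner file, and both belong to the same group.

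Control spots and outlier spots (74 to 113 per array) were left out, each array's 75th percentile was subtracted from log2 intensity, and spots of a probe were averaged. Probes with at least 0.50 of their spots well above background on all 3 arrays of a group were kept, except 4 with a missing array, which left 23827. Groups were compared in limma 3.58.1 (R 4.3.3, with version 1.17.8 of data.table) without intensity trend, and the p-values weigh the difference against the spread among these 6 samples. Names came from RefSeq accessions (22951 probes), matching symbols (6659) or the files (11564). The code was tested on simulated data.

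Beside the members, the genes named are, for each list, up to 3 with the largest rise and 3 with the largest fall among those called, those not called where 3 or fewer, and set markers. The members, lists and this rule were chosen with earlier results of these data known. A result that the rule would name is not reported here. Alternatives were other scalings, background corrections, filters, probe summaries, moderations and blocks, and leaving out each array.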

Additional observations from a re-analysis of the deposited data

How the results depend on the processing

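The counts of called ligand genes (3) and receptor genes (3) lay between 2 and 4 and between 2 and 3 over 22 alternatives. Leaving out each array in turn gave 3 to 4 ligands and 3 to 3 receptors, 3.69 to 4.08 for Fgf7 minus Fgfr2 and 0.68 to 2.19 for Fgf2 minus Fgfr1. With normexp these differences were 2.07 and -0.60, and with the matrix values 2.16 and -0.44, so Fgf2 minus Fgfr1 reversed there. The cause was not tested. Fgf2 at its brightest probe was called in 8 of 21 alternatives, among them median centring (adjusted p = 0.0293), spike-in scaling (0.0118), the mean of its probes (0.00526), array weights (0.00991), and taking the brightest probe without pre-miR-Control replicate 1, chosen after seeing the data (5.58e-04, 3.43). The count of all genes called fell from 8053 to 4781 with spike-in scaling. An array's lowest signal well above background lay between -5.58 and -5.07, which limits dim probes, among them those of Fgf2, Fgf7 and Fgf10.

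Same-numbered replicates did not deviate together (correlations of -0.09, -0.04 and -0.00), and differently numbered ones had correlations of -0.06 to 0.09. These values give no sign of pairing by number, but they cannot show how the cultures were prepared. With the replicate block, 3 ligand and 3 receptor genes were called, Fgf7 minus Fgfr2 was 3.87, Fgf2 minus Fgfr1 was 1.27, and no call of a member's probe changed. The block called 6363 genes in all.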
